A study of Mus musculus with 17 samples.

Results

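Transcripts of 9 germ cell RNA-binding protein genes (Nanos1, Nanos2, Nanos3, Lin28a, Lin28b, Dazl, Dnd1, Pum2 and Cpeb1) were examined in sorted mouse testis germ cells. The genes were chosen by name, as factors that act on mRNA in germ cells, and all 9 were found among the 24013 rows of the count table. They and the gene lists used below were chosen with earlier results of these data known. RNA sequencing covered 17 libraries in 4 groups, all from mice of the genotype Tert-Tomato/+ on a mixed background of B6/J and B6/N. P6gonocyte libraries (n = 4) came from gonocytes of neonates at day 6, positive for TERT and for OCT4-GFP. KITpos libraries (n = 5) came from adult cells sorted as TERT-High and Kit-positive, which the labels call differentiated spermatogonia. GFRA1pos (n = 4) and GFRA1neg (n = 4) libraries came from adult cells sorted as TERT-High and Kit-negative, with and without GFRA1, which the labels call undifferentiated. The P6gonocyte group therefore differs from the other groups in age and in its gate at once, and the part of each cannot be told apart. The labels name no animals, pools or batches, so p-values measure the spread between these samples, which may be technical.

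NANOS proteins hold mRNAs in a repressed state and bring in the CCR4-NOT deadenylase, with Pumilio proteins as sequence-specific partners. NANOS2 maintains spermatogonial stem cells and NANOS3 protects migrating primordial germ cells in the mouse. LIN28 proteins bind the precursors of let-7 microRNAs and block their maturation, and let-7 in turn represses mRNAs that carry its seed match, those of LIN28 among them. DAZL promotes translation of germ cell mRNAs, DND1 works with NANOS proteins on mRNA targets in germ cells, and CPEB1 controls poly(A) tail length in the cytoplasm.

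Total counts per library ran from 6479216 to 8468203 in P6gonocyte, from 5178352 to 8300165 in KITpos, from 10918223 to 11567191 in GFRA1pos and from 9965437 to 12641907 in GFRA1neg. Levels are given in CPM (TMM-scaled counts, relative to library size). Among the sort genes, Gfra1 averaged 145 CPM in P6gonocyte, 4.71 in KITpos, 389.9 in GFRA1pos and 22.8 in GFRA1neg. Kit averaged 188 CPM in P6gonocyte, 353 in KITpos, 17.6 in GFRA1pos and 27.6 in GFRA1neg. Tert ran from 5.09 to 8.18 CPM in P6gonocyte, 4.68 to 8.96 in KITpos, 3.81 to 12.3 in GFRA1pos and 8.43 to 15.4 in GFRA1neg. Pou5f1, the gene behind the OCT4 reporter, had 23.1, 5.53, 26.3 and 24.1 CPM in P6gonocyte, against 0 to 1.54 in KITpos, 1.85 to 4.31 in GFRA1pos and 3.12 to 5.46 in GFRA1neg. P6gonocyte replicate 2 stood below the rest of its group and just above the highest adult library. Without it the Dnd1 call in P6gonocyte minus KITpos was the only member call that was lost. Markers of differentiating spermatogonia (5 genes, Kit among them) summed to 301 to 455 CPM in P6gonocyte and 677 to 962 in KITpos. They summed to 77.2 to 125 CPM in GFRA1pos and 115 to 174 in GFRA1neg. Markers of undifferentiated spermatogonia (6 genes, Gfra1 among them) summed to 665 to 927 CPM in P6gonocyte and 128 to 325 in KITpos. In GFRA1pos they summed to 1571 to 1948 CPM and in GFRA1neg to 779 to 1153. Their part in the results was not tested. Summed transcripts of 7 spermatid markers stood at 6.97 to 9.44 CPM in P6gonocyte, with Prm1 at 0, at 271 to 1032 in KITpos, at 62.9 to 1495 in GFRA1pos and at 287 to 1323 in GFRA1neg. The sum over 7 measured Sertoli cell markers was 75.4 to 236 CPM in P6gonocyte, with the top value in replicate 2, and 11.3 to 44.6 in the adult libraries. The sum over 6 Leydig cell markers was 14.3 to 21.5 CPM in P6gonocyte, with Cyp11a1 at 0, 21.8 to 97.5 in KITpos, 13.8 to 25.4 in GFRA1pos and 9.77 to 26.5 in GFRA1neg. The sum over 8 spermatocyte markers was 136 to 249 CPM in P6gonocyte, 442 to 801 in KITpos, 216 to 938 in GFRA1pos and 506 to 1909.99 in GFRA1neg. The part of these other cell types in the results was not tested, and in bulk samples fewer cells of a type cannot be told apart from less RNA per cell.

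The sequences shown first are mature let-7 sequences and matches to their shared seed in the members' 3′ UTRs. Of 11 mouse let-7 family mature sequences in RefSeq (GRCm38.p6), 10 share the seed GAGGUAG at bases 2 to 8, and let-7j carries GAGGUAU. The mature forms of let-7a, at chr13:48538239-48538260 on the minus strand, and of let-7j, at chr3:140028281-140028304 on the plus strand, are printed 5′ to 3′ with the seed in capitals.
mmu-let-7a-5p: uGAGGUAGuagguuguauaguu
mmu-let-7j: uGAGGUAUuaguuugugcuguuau
Mature microRNAs are not measured in these libraries, and the 12 rows of let-7 family hairpins held 0 to 11 counts per library.

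The complement of the shared seed, CTACCTC, was searched on the sense strand of the 3′ UTR of each member's longest coding transcript (GENCODE M21, GRCm38). It occurred 2 times in Lin28a, 4 times in Lin28b and 1 time in Cpeb1, and not in the windows of the other 6 members. Of 3′ UTRs from 0.8 to 1.25 times as long, 14.8% held at least 1 match beside Lin28a, 24.1% beside Lin28b and 9.51% beside Cpeb1. The sites are printed in the order of the transcript, all on the minus strand, with the seed match in capitals: Lin28a at chr4:134005189-134005211 and chr4:134004551-134004573, Lin28b at chr10:45381022-45381044, chr10:45378648-45378670, chr10:45378476-45378498 and chr10:45377060-45377082, and Cpeb1 at chr7:81347122-81347144.
Lin28a site 1: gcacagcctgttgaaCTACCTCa
Lin28a site 2: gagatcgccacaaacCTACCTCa
Lin28b site 1: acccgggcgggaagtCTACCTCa
Lin28b site 2: tatacttgttagtaaCTACCTCt
Lin28b site 3: gtttacagcacatggCTACCTCc
Lin28b site 4: aaatgatggcaccgaCTACCTCt
Cpeb1 site 1: ctgtgtgtgaagtctCTACCTCa
Both Lin28a matches, the first of the Lin28b matches and the Cpeb1 match are followed by an A, and the other 3 Lin28b matches are not. A match is a description of letters, not a tested site.

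The Pumilio element TGTANATA was found 2 times each in the 3′ UTRs of Pum2 and Lin28b and 1 time each in Nanos1, Lin28a and Cpeb1. Of 3′ UTRs of like length, 43.9% held it beside Pum2, 55.9% beside Lin28b, 43.9% beside Nanos1, 43.0% beside Lin28a and 25.4% beside Cpeb1. The cytoplasmic polyadenylation element TTTTAT was found in 8 of the 9 members, from 1 match in Nanos2 to 10 in Lin28b, and the 172-base 3′ UTR of Nanos3 held none of the 3 motifs. With 5 matches in Dazl and 5 in Pum2, this element was also frequent in other genes, in 76.0% and 85.7% of 3′ UTRs of like length.

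**Figure D1:**
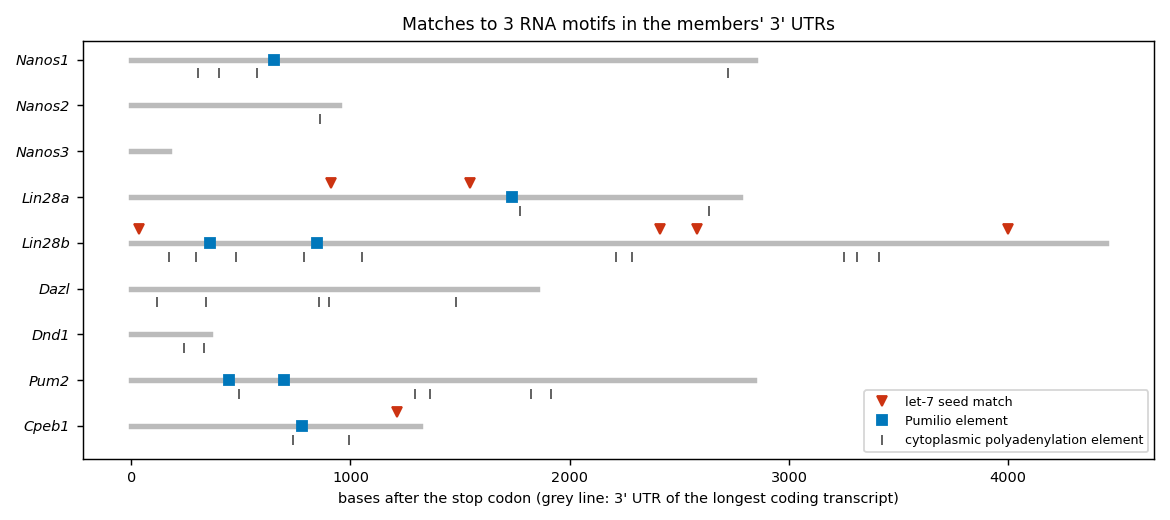
Each grey line is the 3′ UTR of a member's longest coding transcript, with bases after the stop codon on the horizontal axis and matches to the let-7 seed (red triangles), the Pumilio element (blue squares) and the cytoplasmic polyadenylation element (ticks). Lin28b has the longest 3′ UTR, 4445 bases, and the most let-7 seed matches, 4, while Nanos3 has 172 bases and no match.

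LIN28A and LIN28B are a pair of paralogous let-7 blockers, and their transcripts ranked the sorted groups differently. Lin28a (Entrez 83557, chr4:134003330-134018841, minus strand, GRCm38) had 208, 249, 229.8 and 213 CPM in P6gonocyte and 84.1, 111, 83.8, 97.4 and 77.8 CPM in KITpos. It had 314, 281, 357 and 266 CPM in GFRA1pos and 698, 514, 717 and 822 CPM in GFRA1neg. The order from high to low was GFRA1neg, GFRA1pos, P6gonocyte and KITpos, and no 2 of the 4 groups overlapped.

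Lin28a was 2.26-fold lower in GFRA1pos than in GFRA1neg, a log2 difference of -1.18 ± 0.15 (SE) with an adjusted p of 2.27e-05 by edgeR's quasi-likelihood test with Benjamini-Hochberg adjustment over 15451 genes. KITpos was 7.57-fold below GFRA1neg, a log2 difference of -2.92 ± 0.15 (SE) with an edgeR adjusted p of 2.58e-11. Against GFRA1pos, Lin28a was 3.35-fold lower in KITpos (edgeR adjusted p 1.27e-08). P6gonocyte stood 2.47-fold above KITpos (edgeR adjusted p 9.51e-07) and 3.06-fold below GFRA1neg (edgeR adjusted p 4.72e-07). The fall of 0.44 on the log2 scale in P6gonocyte relative to GFRA1pos was called at an edgeR adjusted p of 0.0242. That call was lost without P6gonocyte replicate 1 (adjusted p 0.0723), P6gonocyte replicate 4 (0.0663) or GFRA1pos replicate 3 (0.091). The 234 bases that Lin28a shares with Gm13061 on the opposite strand could not be separated, since the use of strand in counting is not given in the sources used here.

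Lin28b (Entrez 380669, chr10:45376620-45486395, minus strand) had 103, 100.0, 104 and 122 CPM in P6gonocyte and 87.6, 63.7, 97.5, 101 and 132 CPM in KITpos. It had 50.7, 35.4, 41.9 and 41.0 CPM in GFRA1pos and 61.0, 41.0, 43.4 and 49.6 CPM in GFRA1neg. P6gonocyte and KITpos overlapped and were high, GFRA1pos and GFRA1neg overlapped and were low, and neither of the high groups overlapped either of the low ones.

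Lin28b was 2.54-fold higher in P6gonocyte than in GFRA1pos, a log2 difference of 1.34 ± 0.18 (SE) with an edgeR adjusted p of 4.13e-05, and 2.20-fold higher than in GFRA1neg (edgeR adjusted p 0.000101). KITpos was 2.27-fold above GFRA1pos (edgeR adjusted p 1.87e-05) and 1.97-fold above GFRA1neg (edgeR adjusted p 0.000143). The differences that were not called were those of P6gonocyte minus KITpos, 0.16 with a 95% interval from -0.20 to 0.51, and of GFRA1pos minus GFRA1neg, -0.21 with an interval from -0.59 to 0.17, both on the log2 scale.

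The ratio of Lin28a to Lin28b within each library, as log2 of CPM plus a pseudocount of 0.5, needs no gene length when groups are compared. It was 1.01, 1.31, 1.15 and 0.80 in P6gonocyte and -0.06, 0.80, -0.22, -0.05 and -0.76 in KITpos. It was 2.62, 2.97, 3.08 and 2.68 in GFRA1pos and 3.51, 3.63, 4.03 and 4.04 in GFRA1neg. No groups overlapped, although the highest KITpos library (replicate 2) and the lowest P6gonocyte library (replicate 4) both rounded to 0.80.

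The ratio was lower by 3.86 in KITpos than in GFRA1neg, by 2.89 in KITpos than in GFRA1pos and by 0.96 in GFRA1pos than in GFRA1neg, on the log2 scale. P6gonocyte was higher by 1.12 than KITpos and lower than GFRA1pos by 1.77 and than GFRA1neg by 2.73. Each of these 6 differences had an adjusted p of 0.0381 in a two-sided exact permutation test over libraries, adjusted over 12 ratio tests. The unadjusted p-values, 0.0286 for 4 against 4 libraries and 0.0159 for 5 against 4, are the smallest these designs allow.

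**Figure D2:**
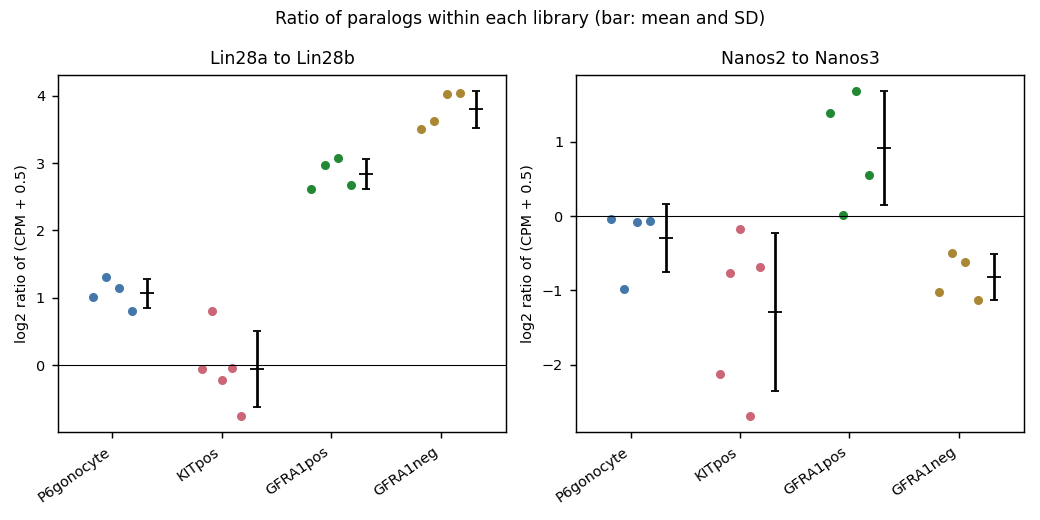
Each point is a library, the bar gives the mean and SD, and the vertical axis is the log2 ratio of Lin28a to Lin28b (left) and of Nanos2 to Nanos3 (right), in CPM plus 0.5. The mean Lin28a to Lin28b ratio is 1.07 in P6gonocyte, -0.06 in KITpos, 2.84 in GFRA1pos and 3.80 in GFRA1neg, and Nanos2 to Nanos3 has a mean above 0 in GFRA1pos, at 0.91, and below 0 in the other groups. Neither ratio is divided by gene length, so 0 does not mark equal levels per length.

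Nanos2 and Nanos3, which encode mRNA repressors of stem cells and primordial germ cells, were both lowest in KITpos. Nanos2 (Entrez 378430, chr7:18987400-18988962, plus strand) had 4.30, 3.61, 6.62 and 5.91 CPM in P6gonocyte and 0, 0.812, 1.56, 0 and 0.346 CPM in KITpos. It had 15.0, 6.93, 14.4 and 9.29 CPM in GFRA1pos and 8.18, 8.32, 9.82 and 9.38 CPM in GFRA1neg. KITpos libraries lay below all others, P6gonocyte lay between them and the Kit-negative groups, and those groups overlapped. The 5 KITpos libraries held 21 Nanos2 counts in all, and a count of 0 in replicates 1 and 4 allows up to 0.42 and 0.512 CPM (3 counts), for counting error only.

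Nanos2 was lower in KITpos than in GFRA1pos by a log2 fold change of -4.27 ± 0.55 (SE; edgeR adjusted p 3.8e-06) and than in GFRA1neg by -3.92 ± 0.55 (SE; edgeR adjusted p 1.1e-05). P6gonocyte was above KITpos by 3.12 ± 0.56 on the log2 scale (SE; edgeR adjusted p 0.000187). KITpos replicate 3 held 12 of the 21 KITpos counts, and without it these differences were -5.11, -4.75 and 3.95. With limma voom they were -4.98, -4.68 and 3.88. All were called in every alternative run. P6gonocyte minus GFRA1pos was -1.15, with a 95% interval from -2.17 to -0.14 and an edgeR adjusted p of 0.0668, and was not called although the libraries did not overlap. DESeq2 called it at an adjusted p of 0.00841, limma voom at 0.0181 and an edgeR fit of these groups alone at 0.00892. GFRA1pos minus GFRA1neg was 0.35 with an interval from -0.64 to 1.34 and was not called. P6gonocyte minus GFRA1neg, -0.80 with an interval from -1.82 to 0.22, was not called, and the fit of these groups alone called it at an adjusted p of 0.0251. Nanos2 overlaps the antisense gene Gm45058 over 766 bases, where reads of the pair could not be told apart.

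Nanos3 (Entrez 244551, chr8:84173731-84185217, minus strand) had 4.44, 7.58, 7.04 and 6.18 CPM in P6gonocyte and 1.68, 1.74, 1.82, 2.73 and 0.866 CPM in KITpos. It had 5.41, 6.83, 4.13 and 6.17 CPM in GFRA1pos and 17.2, 11.995, 15.4 and 21.1 CPM in GFRA1neg. GFRA1neg was high and KITpos low without overlap, and P6gonocyte and GFRA1pos overlapped in between.

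Nanos3 was 2.91-fold lower in GFRA1pos than in GFRA1neg, a log2 difference of -1.54 ± 0.29 (SE) with an edgeR adjusted p of 0.00103. KITpos was 9.23-fold below GFRA1neg (edgeR adjusted p 6.41e-08) and 3.17-fold below GFRA1pos (edgeR adjusted p 0.000108). P6gonocyte was 2.59-fold below GFRA1neg (edgeR adjusted p 0.00086) and 3.56-fold above KITpos (edgeR adjusted p 7.18e-05). Against GFRA1pos, P6gonocyte differed by 0.17 on the log2 scale with a 95% interval from -0.43 to 0.76, which was not called.

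Within libraries, the log2 ratio of Nanos2 to Nanos3 was -0.04, -0.98, -0.08 and -0.06 in P6gonocyte and -2.12, -0.77, -0.17, -2.69 and -0.69 in KITpos. It was 1.39, 0.02, 1.69 and 0.55 in GFRA1pos and -1.03, -0.50, -0.62 and -1.13 in GFRA1neg. GFRA1pos libraries were all above 0 and all others below 0. The ratio is not divided by exon length, 1.563 kb for Nanos2 and 0.924 kb for Nanos3, so 0 does not mark equal levels per length. The ratio was higher by 1.73 in GFRA1pos than in GFRA1neg, lower by 2.20 in KITpos than in GFRA1pos, and lower by 1.20 in P6gonocyte than in GFRA1pos, each with an exact permutation adjusted p of 0.0381. The other 3 differences were not called: -0.47 for KITpos minus GFRA1neg (exact permutation adjusted p 0.476), 0.53 for P6gonocyte minus GFRA1neg (0.103) and 1.00 for P6gonocyte minus KITpos (0.173). In KITpos this ratio rests on few counts, 21 of Nanos2 and 62 of Nanos3, and the size of its differences moved with the pseudocount. KITpos minus GFRA1pos was -3.22 with 0.1 CPM and -1.77 with 1 CPM, and was called with both. KITpos minus GFRA1neg was -1.41 with 0.1 CPM and -0.12 with 1 CPM, and was called with neither. P6gonocyte minus KITpos was 1.95 with 0.1 CPM (exact permutation p 0.0476, adjusted 0.0571) and 0.64 with 1 CPM.

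Nanos1, the family member that is expressed more widely than the germ line, had its highest mean in KITpos. Nanos1 (Entrez 332397, chr19:60755987-60759914, plus strand) had 77.1, 94.4, 88.3 and 85.1 CPM in P6gonocyte and 93.2, 134, 90.4, 111 and 138 CPM in KITpos. It had 79.5, 47.5, 73.8 and 66.3 CPM in GFRA1pos and 59.2, 52.3, 59.2 and 51.2 CPM in GFRA1neg. KITpos was high and GFRA1neg low, and P6gonocyte overlapped both KITpos and GFRA1pos.

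Nanos1 was 2.04-fold higher in KITpos than in GFRA1neg, a log2 difference of 1.03 ± 0.16 (SE) with an edgeR adjusted p of 2.67e-05, and 1.69-fold higher than in GFRA1pos (edgeR adjusted p 0.000486). P6gonocyte was 1.56-fold above GFRA1neg (edgeR adjusted p 0.00396). P6gonocyte was 1.31-fold below KITpos at an edgeR adjusted p of 0.042, a call that was lost without P6gonocyte replicate 1 (0.125), 3 (0.0773) or 4 (0.091) and without KITpos replicate 2 (0.0983), 4 (0.0557) or 5 (0.103). It was also lost with RLE scaling (0.0534), limma voom (0.0562) and a fit of these groups alone (0.0621). GFRA1pos minus GFRA1neg was 0.27 with a 95% interval from -0.07 to 0.61, and P6gonocyte minus GFRA1pos was 0.37 with an interval from 0.03 to 0.71 and an edgeR adjusted p of 0.0773, both on the log2 scale and not called. Without GFRA1pos replicate 1 the second was called at 0.0441.

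Promoters are shown for the paralog pairs whose ratios within libraries are given above. Each is 300 bases, from 250 before to 50 after the RefSeq gene start (GRCm38.p6), printed 5′ to 3′ on the gene's strand. Capitals mark the GC box GGGCGG and the CCAAT box CCAAT, searched on both strands, and no matches overlapped. They lie at chr7:18987274-18987573 (Nanos2, plus strand), chr8:84176503-84176802 (Nanos3, minus strand), chr4:134018767-134019066 (Lin28a, minus strand) and chr10:45470152-45470451 (Lin28b, minus strand). The Nanos3 and Lin28b windows lie inside the GENCODE gene spans given above, which begin farther upstream than the RefSeq starts.
Nanos2: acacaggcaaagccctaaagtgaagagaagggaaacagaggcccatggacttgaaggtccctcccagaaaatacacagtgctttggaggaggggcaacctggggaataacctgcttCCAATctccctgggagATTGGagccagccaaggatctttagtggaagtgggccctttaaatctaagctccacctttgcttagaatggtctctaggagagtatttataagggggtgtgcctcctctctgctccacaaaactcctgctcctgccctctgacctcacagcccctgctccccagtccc
Nanos3: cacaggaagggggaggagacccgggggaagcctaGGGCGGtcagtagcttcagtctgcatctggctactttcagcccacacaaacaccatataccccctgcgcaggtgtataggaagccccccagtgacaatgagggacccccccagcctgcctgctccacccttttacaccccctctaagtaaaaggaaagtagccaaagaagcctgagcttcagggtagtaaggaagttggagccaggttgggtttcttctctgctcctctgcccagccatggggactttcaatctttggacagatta
Lin28a: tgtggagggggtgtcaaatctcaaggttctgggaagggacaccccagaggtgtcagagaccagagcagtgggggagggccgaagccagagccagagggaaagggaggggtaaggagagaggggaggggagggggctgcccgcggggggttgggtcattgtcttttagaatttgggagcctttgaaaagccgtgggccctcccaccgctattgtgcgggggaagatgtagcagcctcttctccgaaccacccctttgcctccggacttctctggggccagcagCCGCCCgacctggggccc
Lin28b: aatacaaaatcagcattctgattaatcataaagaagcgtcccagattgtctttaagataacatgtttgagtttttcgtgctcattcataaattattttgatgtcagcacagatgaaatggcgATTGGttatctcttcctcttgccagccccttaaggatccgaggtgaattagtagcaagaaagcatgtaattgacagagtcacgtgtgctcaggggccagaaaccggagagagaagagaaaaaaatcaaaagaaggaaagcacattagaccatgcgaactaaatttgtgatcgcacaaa
The Nanos2 window held 0 CpG and 2 CCAAT boxes, the Nanos3 window 3 CpG and 1 GC box, the Lin28a window 10 CpG and 1 GC box, and the Lin28b window 8 CpG and 1 CCAAT box. Of 32851 promoters of this length, 94.6% held at least 1 CpG with a median of 7, 35.7% held a GC box and 37.4% a CCAAT box. The E-box CANNTG, left in lower case, was found 2 times each in Nanos3 and Lin28b and not in the other windows, against 72.3% of promoters.

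Dazl, which encodes a translation factor of the germ line, was the most abundant member per length in P6gonocyte and KITpos. Dazl (Entrez 13164, chr17:50279395-50293636, minus strand) had 799, 741, 907 and 1032 CPM in P6gonocyte and 535, 479.9, 548, 631 and 618 CPM in KITpos. It had 295, 219, 235 and 308 CPM in GFRA1pos and 474, 304, 493 and 359 CPM in GFRA1neg. P6gonocyte was above every adult library, KITpos overlapped GFRA1neg, and GFRA1neg overlapped GFRA1pos.

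Dazl was 3.29-fold higher in P6gonocyte than in GFRA1pos, a log2 difference of 1.72 ± 0.17 (SE) with an edgeR adjusted p of 2.24e-06. P6gonocyte was 2.13-fold above GFRA1neg (edgeR adjusted p 5.71e-05) and 1.55-fold above KITpos (edgeR adjusted p 0.00246). KITpos was 2.13-fold above GFRA1pos (edgeR adjusted p 1.51e-05). KITpos was 1.38-fold above GFRA1neg at an edgeR adjusted p of 0.0204, a call lost without GFRA1neg replicate 2 (0.0795) or 4 (0.0703), in a fit of these groups alone (0.0681) and without the 4 libraries highest in spermatid markers (0.0768). GFRA1pos was 1.54-fold below GFRA1neg at an edgeR adjusted p of 0.0145, a call lost without GFRA1pos replicate 2 (0.0575) or 3 (0.0525) or GFRA1neg replicate 1 (0.0559) or 3 (0.0608).

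Dnd1, whose protein binds mRNAs together with NANOS proteins, covered a narrower range. Dnd1 (Entrez 213236, chr18:36763671-36766214, minus strand) had 24.0, 29.8, 24.9 and 25.0 CPM in P6gonocyte and 22.0, 16.1, 13.1, 21.1 and 17.5 CPM in KITpos. It had 12.5, 14.2, 15.4 and 13.4 CPM in GFRA1pos and 22.3, 15.1, 26.1 and 25.9 CPM in GFRA1neg. P6gonocyte lay above KITpos and GFRA1pos, and GFRA1neg overlapped all 3 other groups.

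Dnd1 was 1.87-fold higher in P6gonocyte than in GFRA1pos, a log2 difference of 0.90 ± 0.20 (SE) with an edgeR adjusted p of 0.00159. P6gonocyte was 1.45-fold above KITpos at an edgeR adjusted p of 0.0238, which was lost without P6gonocyte replicate 2 (0.0692) or KITpos replicate 3 (0.0607). GFRA1pos was 1.61-fold below GFRA1neg at an edgeR adjusted p of 0.0243. That call was lost without any 1 of GFRA1pos replicates 1 (0.0725), 2 (0.0525) and 4 (0.073) or of GFRA1neg replicates 1 (0.0524), 3 (0.082) and 4 (0.0786), and with no count filter (0.0526). KITpos minus GFRA1neg, -0.31 with a 95% interval from -0.70 to 0.07, was not called but passed without GFRA1neg replicate 2 (adjusted p 0.0415) and without the 4 libraries highest in spermatid markers (0.026). KITpos minus GFRA1pos, 0.37 with an interval from -0.03 to 0.76, passed without KITpos replicate 3 (0.0473). P6gonocyte minus GFRA1neg was 0.22 with an interval from -0.19 to 0.63, and the 140 bases shared with Wdr55 on the opposite strand could not be separated.

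Pum2, which encodes a Pumilio protein that binds the element TGTANATA, differed by at most 0.61 on the log2 scale. Pum2 (Entrez 80913, chr12:8674134-8752581, plus strand) had 172, 138, 169 and 184 CPM in P6gonocyte and 133, 129.5, 155, 173 and 148 CPM in KITpos. It had 110.5, 97.0, 112 and 115 CPM in GFRA1pos and 140.2, 113, 146 and 125 CPM in GFRA1neg. GFRA1pos was lowest and overlapped only GFRA1neg, and the other 3 groups overlapped each other.

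Pum2 was 1.53-fold higher in P6gonocyte than in GFRA1pos, a log2 difference of 0.61 ± 0.13 (SE) with an edgeR adjusted p of 0.000981. KITpos was 1.36-fold above GFRA1pos (edgeR adjusted p 0.0046), a call lost without the 4 libraries highest in spermatid markers (0.0513). P6gonocyte was 1.26-fold above GFRA1neg at an edgeR adjusted p of 0.0352, lost without P6gonocyte replicate 1 (0.0789), 3 (0.0696) or 4 (0.106), without GFRA1neg replicate 2 (0.116) or 4 (0.0786), with upper-quartile scaling (0.0555) and without the 4 spermatid-high libraries (0.0651). Not called were GFRA1pos minus GFRA1neg at -0.27 (95% interval -0.53 to -0.01), KITpos minus GFRA1neg at 0.17 (-0.08 to 0.42) and P6gonocyte minus KITpos at 0.17 (-0.08 to 0.41).

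Cpeb1, whose protein directs cytoplasmic polyadenylation, had its lowest mean in P6gonocyte. Cpeb1 (Entrez 12877, chr7:81347026-81455465, minus strand) had 32.4, 39.2, 38.5 and 37.1 CPM in P6gonocyte and 39.6, 61.0, 53.0, 73.7 and 34.3 CPM in KITpos. It had 57.4, 46.1, 46.2 and 42.7 CPM in GFRA1pos and 66.0, 51.1, 57.2 and 53.6 CPM in GFRA1neg. P6gonocyte lay below both Kit-negative groups, and the KITpos libraries spread over all other groups.

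Cpeb1 was 1.55-fold lower in P6gonocyte than in GFRA1neg, a log2 difference of -0.63 ± 0.19 (SE) with an edgeR adjusted p of 0.0114. P6gonocyte was 1.42-fold below KITpos at an edgeR adjusted p of 0.0263, lost without P6gonocyte replicate 1 (0.0834) or 4 (0.0562), without KITpos replicate 2 (0.0595) or 4 (0.0883) and in a fit of these groups alone (0.0643). P6gonocyte minus GFRA1pos was -0.39 with a 95% interval from -0.78 to 0.01, not called, although the fit of these groups alone called it at 0.0234. No adult comparison was called: -0.24 (-0.64 to 0.15) for GFRA1pos minus GFRA1neg, -0.12 (-0.49 to 0.25) for KITpos minus GFRA1neg and 0.12 (-0.25 to 0.50) for KITpos minus GFRA1pos, which turned to -0.03 without KITpos replicate 4.

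**Figure D3:**
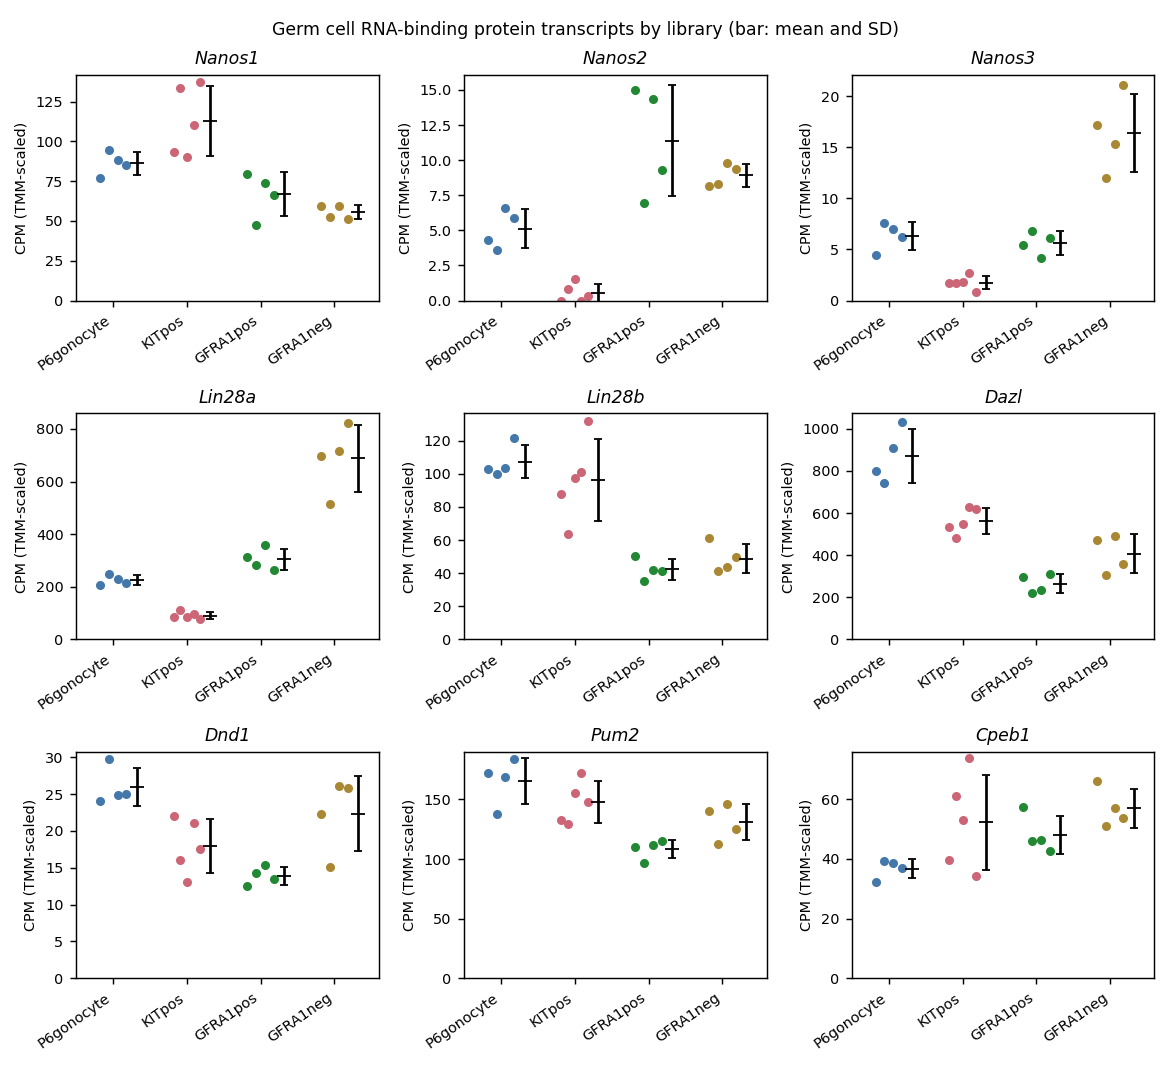
Each panel shows one member, with a point per library, the mean and SD as a bar, and CPM on a linear vertical axis that starts at 0. Lin28a and Nanos3 have their highest means in GFRA1neg, 688 and 16.4 CPM, Nanos1 is highest in KITpos, at 113 CPM, and Dazl is highest in P6gonocyte, at 869.8 CPM.

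Read by comparison, 0 of the 9 members were higher and 4 lower in GFRA1pos than in GFRA1neg, where 7.30% of all 15451 genes tested were higher and 6.84% lower. In KITpos against GFRA1neg 3 were higher and 3 lower, beside 22.1% and 23.0% of all genes, and in KITpos against GFRA1pos 4 were higher and 3 lower, beside 24.9% and 23.7%. In P6gonocyte against GFRA1pos 4 were higher and 1 lower, beside 17.3% and 21.9%. In P6gonocyte against GFRA1neg 4 were higher and 3 lower, beside 18.8% and 24.9%, and in P6gonocyte against KITpos 5 were higher and 2 lower, beside 21.8% and 27.3%. The 6 comparisons share their libraries, so their values are given side by side and are not independent of each other. The 4 members lower in GFRA1pos than in GFRA1neg were Lin28a, Nanos3, Dazl and Dnd1, and Dazl and Dnd1 are the ones whose calls did not survive leaving out single libraries.

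**Figure D4:**
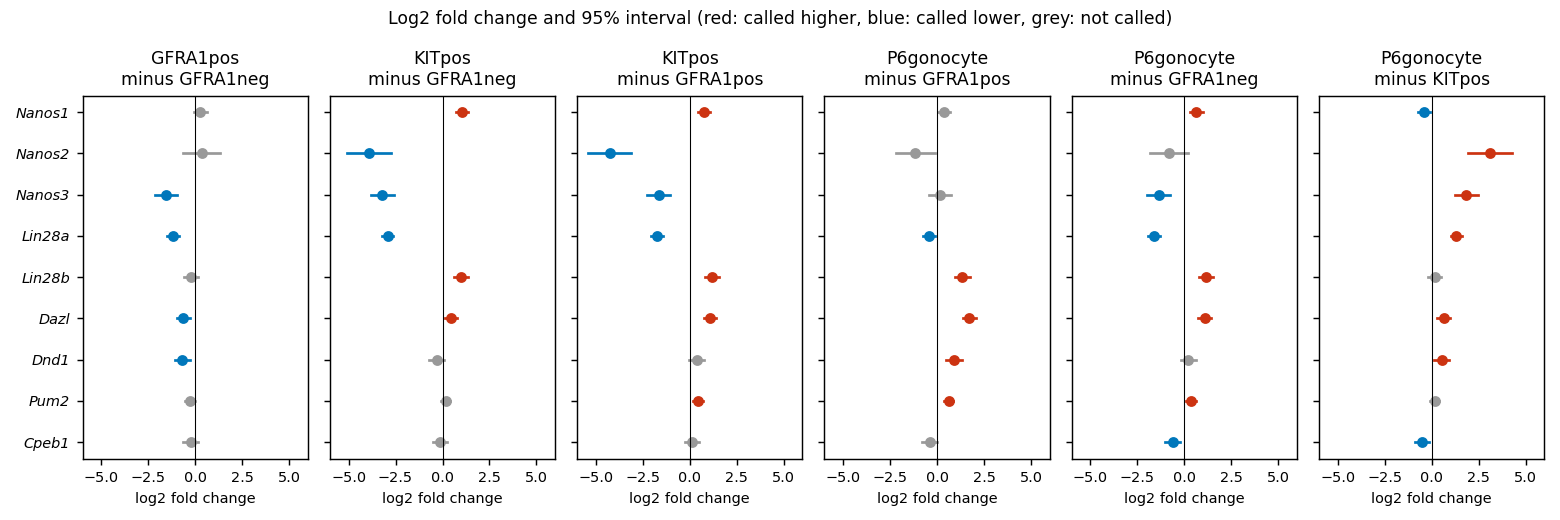
For each comparison, points give the log2 fold change of each member and lines its 95% interval, in red where called higher, blue where called lower and grey where not called. Nanos2, Nanos3 and Lin28a lie to the left of 0 in KITpos minus GFRA1neg, at -3.92, -3.21 and -2.92, while Nanos1, Lin28b and Dazl lie to the right, at 1.03, 0.98 and 0.46.

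Levels of different members were compared per kilobase of exon (GENCODE M21), as group means in CPM per kb. In GFRA1neg Lin28a stood first at 172, ahead of Dazl at 107, Pum2 at 18.1 and Nanos3 at 17.8. In KITpos Dazl stood first at 147, ahead of Nanos1 at 28.8, Lin28a at 22.7 and Pum2 at 20.3. In P6gonocyte Dazl stood at 228 and Lin28a at 56.3, and in GFRA1pos Lin28a at 76.2 and Dazl at 69.2. Nanos2 was at 3.27 in P6gonocyte, 0.347 in KITpos, 7.29 in GFRA1pos and 5.71 in GFRA1neg, and Lin28b stayed between 4.66 and 11.8 in all groups. The Nanos3 model is short, 0.924 kb, so its level per length is uncertain. The Lin28b model, 9.065 kb, is longer than its longest coding transcript of 5402 bases. Per length of that transcript the Lin28b levels would be higher.

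Among the members, the most alike profiles over the 17 libraries were those of Lin28b and Dazl, with a root mean square difference of 0.291 in centred log2(CPM + 1). Dnd1 and Pum2 followed at 0.307 and Nanos3 and Lin28a at 0.332. The measure depends on how much a gene varies, so genes that vary little lie close to each other. Lin28b and Dazl still differed in their calls. P6gonocyte minus KITpos was 0.16 and not called for Lin28b, and 0.63 and called for Dazl, on the log2 scale. Outside the members, over 12275 genes with at least 5 CPM in a group, the gene nearest to Nanos2 was Trim71 (0.294), followed by Vsig10 (0.316) and Lamb1 (0.317). Siae was nearest to Nanos3 (0.295) and also the third nearest to Lin28a (0.248), after Snx33 (0.224) and Cmip (0.240). Adding 1 CPM before the log narrows falls to low levels, such as those of Nanos2 and Nanos3 in KITpos. In the edgeR fit, KITpos minus GFRA1pos was -4.27 for Nanos2 and -2.87 for Trim71 on the log2 scale. The genes nearest to Lin28b were Cul5 (0.159), Cul1 (0.196) and Snx5 (0.205), and those near Dazl included Ddx10 (0.191) and Hdac2 (0.210). Nearest to Dnd1 were Rpl15 (0.172), Eif2a (0.184) and Rps6 (0.196), and nearest to Pum2 were Arih1 (0.111), Mre11a (0.117) and Pds5b (0.117). Cpeb1 lay nearest to Rab5b (0.167), Zfyve27 (0.186) and Samd4b (0.187), and Nanos1 to Nfe2l2 (0.181), Brd7 (0.187) and Invs (0.191).

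Close relatives of CPEB1 and DAZL were measured beside them. Cpeb4 averaged 44.3 ± 5.501 CPM in P6gonocyte, 121 ± 25.8 in KITpos, 42.2 ± 4.79 in GFRA1pos and 58.5 ± 5.59 in GFRA1neg (SD, n = 4, 5, 4 and 4). It was 2.06-fold higher in KITpos than in GFRA1neg (edgeR adjusted p 1.29e-05), beside the Cpeb1 difference of -0.12 on the log2 scale that was not called; the difference between the paralogs was not tested. Boll, the DAZL relative of meiotic germ cells, was 2.62-fold higher in KITpos than in GFRA1pos (edgeR adjusted p 7.13e-06), at means of 30.0 and 11.4 CPM. Summed spermatocyte markers overlapped between these groups, at 442 to 801 CPM in KITpos and 216 to 938 CPM in GFRA1pos. Of the 8 markers, 3 were called higher and 0 lower in KITpos, beside 24.9% and 23.7% of all genes: Hormad1, Sycp1 and Tbpl1. They averaged 54.8, 95.5 and 129 CPM in KITpos and 16.9, 43.3 and 83.3 CPM in GFRA1pos (edgeR adjusted p 0.000294, 0.0182 and 0.00234). The part of these markers in the Boll values was not tested. Cpeb2 and Cpeb3 were lowest in P6gonocyte, at means of 8.43 and 3.76 CPM. Cpeb2 ran from 17.4 to 65.2 CPM within GFRA1neg, with its top value in replicate 2, the GFRA1neg library highest in spermatid markers.

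The partners of LIN28 and of microRNA maturation were followed in a list of 10 genes. Of these, 1 rose and 5 fell in KITpos against GFRA1neg, where 22.1% of all genes tested were higher and 23.0% lower, with a median log2 fold change of -0.37 beside 0.03 over all genes. Trim71, itself a regulator of germ and stem cell mRNAs, averaged 98.3 CPM in KITpos and 751 CPM in GFRA1neg, with a log2 fold change of -2.93 ± 0.19 (SE; edgeR adjusted p 1.18e-09), close in size to the -2.92 of Lin28a. Xpo5, which exports microRNA precursors, averaged 84.1 CPM in KITpos and 196 CPM in GFRA1neg (edgeR adjusted p 1.75e-06). Dicer1, which cuts them, averaged 234 CPM in KITpos and 481 CPM in GFRA1neg (edgeR adjusted p 6.01e-06).

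Against GFRA1pos, 2 of the 10 genes were higher and 3 lower in KITpos, near the 24.9% and 23.7% of all genes. Between the Kit-negative groups, 1 was higher and 2 lower in GFRA1pos, beside 7.30% and 6.84%. Drosha, which makes the precursors, averaged 488 CPM in GFRA1pos and 327 CPM in GFRA1neg (edgeR adjusted p 0.0029), while Dicer1 averaged 283 CPM in GFRA1pos and 481 CPM in GFRA1neg (edgeR adjusted p 0.0014). In P6gonocyte against KITpos 6 rose and 1 fell, beside 21.8% and 27.3% of all genes. Against GFRA1pos 3 rose and 3 fell, beside 17.3% and 21.9%, and against GFRA1neg 1 rose and 4 fell, beside 18.8% and 24.9%. In P6gonocyte Trim71 averaged 409.7 CPM, 4.16-fold above KITpos (edgeR adjusted p 1.39e-07), 1.75-fold below GFRA1pos (edgeR adjusted p 0.00308) and 1.83-fold below GFRA1neg (edgeR adjusted p 0.00144). Syncrip, the gene that rose against GFRA1neg, averaged 219.9 CPM in P6gonocyte and 118 CPM in GFRA1neg (edgeR adjusted p 0.000768).

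A list of 20 genes known as let-7 targets gave 5 higher and 11 lower in KITpos than in GFRA1neg, beside 22.1% and 23.0% of all genes, with a median log2 fold change of -0.45 beside 0.03 over all genes. Igf2bp2, an mRNA-binding protein of growing cells, averaged 3.16 CPM in KITpos and 32.3 CPM in GFRA1neg (edgeR adjusted p 2.45e-09). Mycn averaged 19.3 CPM in KITpos and 63.4 CPM in GFRA1neg (edgeR adjusted p 2.23e-07). The cyclin D1 gene Ccnd1 ran the other way, at 165 CPM in KITpos and 53.1 CPM in GFRA1neg (edgeR adjusted p 2.99e-09). In GFRA1pos against GFRA1neg 5 were higher and 2 lower, beside 7.30% and 6.84% of all genes, with Ccnd2 at 349 CPM in GFRA1pos and 74.2 CPM in GFRA1neg (edgeR adjusted p 1.01e-07) and Cdk6 at 16.2 CPM in GFRA1pos and 74.2 CPM in GFRA1neg (edgeR adjusted p 5.31e-09). In P6gonocyte 5 were higher and 4 lower than in GFRA1pos, beside 17.3% and 21.9%, and 5 higher and 3 lower than in GFRA1neg, beside 18.8% and 24.9%. In P6gonocyte against KITpos 9 were higher and 2 lower, beside 21.8% and 27.3%, with Ccnd2 at 258 CPM in P6gonocyte and 47.7 CPM in KITpos (edgeR adjusted p 2.11e-09).

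Of 15 genes of the CCR4-NOT deadenylase and its TOB and BTG adaptors, the machinery that NANOS proteins bring to mRNAs, 1 was higher and 6 lower in KITpos than in GFRA1neg, beside 22.1% and 23.0% of all genes. Their median log2 fold change was -0.24, beside 0.03 over all genes. Cnot3 averaged 88.5 CPM in KITpos and 183 CPM in GFRA1neg (edgeR adjusted p 1.69e-05) and Cnot2 averaged 77.6 CPM in KITpos and 131 CPM in GFRA1neg (edgeR adjusted p 0.00011). The deadenylase subunit Cnot6 was the gene that was higher, at 71.1 CPM in KITpos and 41.4 CPM in GFRA1neg (edgeR adjusted p 3.72e-05). In GFRA1pos against GFRA1neg 0 were higher and 1 lower, a share of the 15 near the 6.84% of all genes that were lower. It was the deadenylase Cnot7, at 48.5 CPM in GFRA1pos and 72.1 CPM in GFRA1neg (edgeR adjusted p 0.0177), with overlapping libraries. In P6gonocyte against KITpos 6 were higher and 0 lower, beside 21.8% and 27.3%. Against GFRA1pos, P6gonocyte had 3 higher and 2 lower, beside 17.3% and 21.9%. Against GFRA1neg it had 2 higher and 0 lower, beside 18.8% and 24.9%. In KITpos against GFRA1pos 2 were higher and 6 lower, beside 24.9% and 23.7%.

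Of 20 genes of cytoplasmic polyadenylation and translational repression, the processes in which CPEB1 and DAZL act, 11 were higher and 1 lower in P6gonocyte than in GFRA1pos, beside 17.3% and 21.9% of all genes. Their median log2 fold change was 0.47, beside -0.05 over all genes. Pabpc1, the main cytoplasmic poly(A)-binding protein, averaged 2066 CPM in P6gonocyte and 971 CPM in GFRA1pos (edgeR adjusted p 5.8e-05). Pabpc4, its relative, averaged 72.5 CPM in P6gonocyte and 28.7 CPM in GFRA1pos (edgeR adjusted p 1.83e-05), and Cpsf2 averaged 153 CPM in P6gonocyte and 74.3 CPM in GFRA1pos (edgeR adjusted p 3.12e-06). In KITpos against GFRA1pos 9 were higher and 4 lower, beside 24.9% and 23.7%, with Paip1 at 39.3 CPM in KITpos and 12.6 CPM in GFRA1pos (edgeR adjusted p 9.32e-06). In GFRA1pos against GFRA1neg 0 were higher and 4 lower, beside 7.30% and 6.84%. Pabpc1 was among the lower genes, at 971 CPM in GFRA1pos and 1508 CPM in GFRA1neg (edgeR adjusted p 0.00846). In KITpos against GFRA1neg 8 were higher and 6 lower, beside 22.1% and 23.0%. In P6gonocyte against GFRA1neg 8 were higher and 2 lower, beside 18.8% and 24.9%. Against KITpos, P6gonocyte had 9 higher and 3 lower, beside 21.8% and 27.3%.

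**Figure D5:**
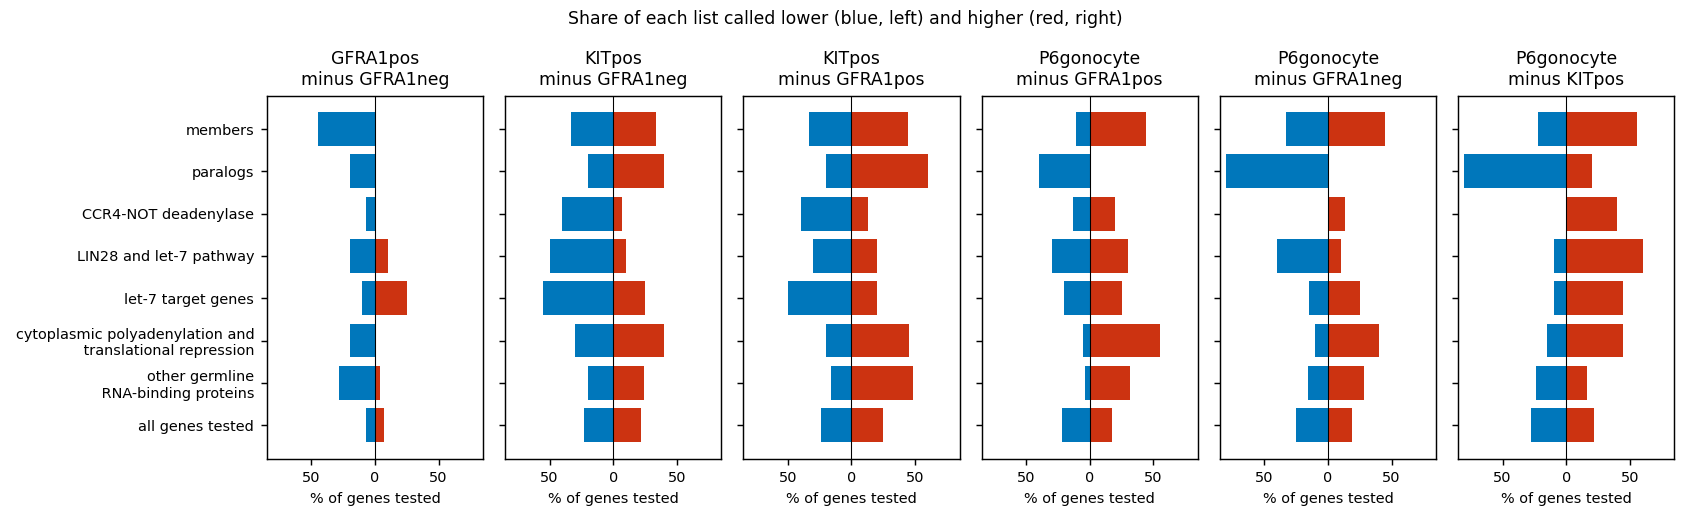
Bars give the percent of each list's tested genes that were called lower (blue, to the left) and higher (red, to the right) in each comparison, with all 15451 genes tested in the lowest row. Of the CCR4-NOT list, 6 of 15 genes are lower in KITpos than in GFRA1neg, and of the polyadenylation list 11 of 20 are higher in P6gonocyte than in GFRA1pos.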

How the data were processed

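The authors deposited raw counts, whole numbers per gene. The build mm9 and the tools Bowtie, Bowtie2 2.0.0-6, TopHat2 2.0.4, Trim Galore, DESeq and DESeq2 appear in the submitters' processing notes with no roles. Which program counted reads, on which annotation and whether by strand is not given in the sources used here. Per the labels' protocols, RNA of sorted cells was amplified with a NuGEN Ovation kit before library preparation. GFRA1pos replicate 1 was read from a column whose name has GFP where GFR belongs, taken as a slip.

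Symbols matched 23930 of 24013 Entrez numbers, and 83 rows had none. The most abundant row held 9.62% to 29.94% of a library's counts. Replicate libraries differed beyond counting error, with a chi-square per degree of freedom from 4.13 to 51.0 over 28 pairs, so none were merged.

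Counts were tested with edgeR 4.0.16 under R 4.3.3 (the quasi-likelihood test with 1 mean per group over all 17 libraries, TMM, filterByExpr, Benjamini-Hochberg, adjusted p under 0.05). A total of 15451 genes passed the filter, among them all 9 members. Intervals are 95% intervals of the log2 fold change. The quasi-likelihood test gives no SE. Each SE of a log2 fold change was taken as its absolute value over the square root of the test's F statistic. The intervals were built from this SE with a t quantile. Both are approximate, most of all at low counts such as those of Nanos2 in KITpos. Ratios within libraries were compared by exact permutation tests (scipy 1.17.1). Both steps were run on simulated data. The simulated ratios spread less than those measured in KITpos, with an SD of 0.558 for Lin28a to Lin28b and 1.07 for Nanos2 to Nanos3. That run therefore does not cover ratios as spread as these. The members and the gene lists were chosen with earlier results of these data known. Named were all members and paralogs, up to 3 genes per list and comparison with the smallest adjusted p, the 3 genes nearest to each member in profile, and the sort genes. Some genes that this rule takes are not reported here.

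Alternatives were scaling by RLE or by upper quartile, limma voom (limma 3.58.1), DESeq2 1.42.0, testing all genes with counts, testing those at 1 CPM or more in 4 libraries, fits of 2 groups, the replicate number as a block, removal of the most abundant row, other pseudocounts, and each library left out in turn. Leaving out the 4 libraries highest in spermatid markers (GFRA1pos replicates 2 and 4, GFRA1neg replicate 2, KITpos replicate 1) was chosen after seeing the data. Gene positions, exon lengths and 3′ UTRs are from GENCODE M21 (GRCm38), and promoters and microRNAs from RefSeq (GRCm38.p6). These builds differ from mm9 and no coordinates were converted.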

Additional observations from a re-analysis of the deposited data

Results flagged for a closer look

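In 44 groups of member values and ratios tested for a library apart from the rest, 3 had one, where chance gives about 1 in 20. All 3 were P6gonocyte groups of 4 libraries. Lin28b stood at 121.903 CPM in replicate 4, against 100.0 to 104 CPM in the other P6gonocyte libraries. Dnd1 stood at 29.82 CPM in replicate 2, against 24.0 to 25.0 CPM in the others. The log2 ratio of Nanos2 to Nanos3 was -0.9753 in replicate 2, against -0.08 to -0.04 in the others. Replicate 2 was also the P6gonocyte library with the highest summed Sertoli cell markers, 236 CPM against 75.4 to 78.8 CPM, and the lowest Pou5f1, 5.53 CPM. The part of these in the values was not tested.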

How the results depend on the processing

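Of 54 member results, 36 were called and 27 of those were called under every alternative run. The 9 others are named beside their values in the report. Library scaling, count filters, DESeq2, limma voom and removal of the most abundant row each ended at most 1 member call, and fits of 2 groups ended 3. Without the 4 libraries highest in spermatid markers, 33 of the 36 calls were kept, and genes called fell to 1268 for GFRA1pos minus GFRA1neg, against 2185 with all libraries, and to 3971 for P6gonocyte minus GFRA1pos, against 6060. The part of smaller groups in these counts was not tested. With each library left out in turn, the member count ran from 2 to 4 for GFRA1pos minus GFRA1neg, where it was 2 without GFRA1pos replicate 2 or GFRA1neg replicates 1 or 3. Cpeb1 in KITpos minus GFRA1pos ran from -0.0296 (without KITpos replicate 4) to 0.24 on the log2 scale and was never called. Scaling by RLE or upper quartile moved the median of all genes by at most 0.054 on the log2 scale.

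With the replicate number as a block, 6 members were called for P6gonocyte minus KITpos, against 7 without it, since Nanos1 was lost (-0.31, edgeR adjusted p 0.133), and no other member call changed. Pairing was taken to need a correlation of same-numbered deviations over 0.1 in all 4 pairs, which no comparison met. In GFRA1pos minus GFRA1neg 3 of the 4 pairs exceeded it (0.033 to 0.517), and the block gave 2584 genes called, against 2185 without it, so shared conditions in some of these libraries were not tested further. Replicate 2 was highest in spermatid markers in both groups. In the paired exact sign-flip test of the ratios, 0.125 is the smallest p that 4 pairs allow. The Nanos2 to Nanos3 values under other pseudocounts stand in the report. Depth limits Nanos2 most, with 21 counts over the KITpos libraries.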

Other observations

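A list of 25 other germline RNA-binding protein genes held 12 genes that were higher and 4 that were lower in KITpos than in GFRA1pos, where 24.9% of all genes tested were higher and 23.7% lower, with a median log2 fold change of 0.39 beside 0.07 over all genes. Meioc, a meiotic RNA-binding partner, averaged 118 CPM in KITpos and 10.99 CPM in GFRA1pos (edgeR adjusted p 8.56e-08). Of 8 spermatocyte markers, 3 were higher and 0 lower in this comparison, beside the same shares of all genes. Their part in this Meioc difference was not tested. Bicc1 averaged 3.37 CPM in KITpos and 26.6 CPM in GFRA1pos (edgeR adjusted p 5.1e-09), and Msi2, a Musashi protein, averaged 46.4 CPM in KITpos and 139.5 CPM in GFRA1pos (edgeR adjusted p 1.02e-07).

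In GFRA1pos against GFRA1neg 1 of the 25 was higher, Elavl2 at 46.1 CPM in GFRA1pos and 22.9 CPM in GFRA1neg (edgeR adjusted p 0.000254), and 7 were lower, beside 7.30% and 6.84% of all genes. Meioc was among these, at 10.99 CPM in GFRA1pos and 39.6 CPM in GFRA1neg (edgeR adjusted p 0.000507). Summed spermatocyte markers stood at 216 to 938 CPM in GFRA1pos and 506 to 1909.99 CPM in GFRA1neg, and 1 of the 8, Hormad1, was called lower, at 16.9 CPM in GFRA1pos and 37.1 CPM in GFRA1neg (edgeR adjusted p 0.0279). Their part in the Meioc values was not tested. In KITpos against GFRA1neg 6 of the 25 were higher and 5 lower, beside 22.1% and 23.0% of all genes. In P6gonocyte against KITpos 4 were higher and 6 lower, beside 21.8% and 27.3%. Against GFRA1neg, P6gonocyte had 7 higher and 4 lower, beside 18.8% and 24.9%. In P6gonocyte against GFRA1pos 8 were higher and 1 lower, beside 17.3% and 21.9%, with the helicase gene Ddx4 at 259 CPM in P6gonocyte and 124 CPM in GFRA1pos (edgeR adjusted p 0.000102) and Rbm46 at 155 CPM in P6gonocyte and 47.8 CPM in GFRA1pos (edgeR adjusted p 3.83e-06).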
